A study of Mus musculus with 6 samples.

Results

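The genes described here encode the respiratory chain and ATP synthase of the mouse, in group 1 innate lymphoid cells (ILC1s) from liver. They were taken by gene symbol from a table of 23942 genes: names for NADH dehydrogenase (Nduf), succinate dehydrogenase (Sdh), ubiquinol cytochrome c reductase (Uqcr), cytochrome c oxidase (Cox4 to Cox8) and ATP synthase (Atp5), together with the protein genes of the mitochondrial genome. The rule gave 102 genes, 89 nuclear and 13 mitochondrially encoded, after 4 names marked as pseudogenes had been left out. The rule uses names only, but it was set with earlier results of these data known. Of the nuclear genes, 44 belong to complex I (7 core subunits, 29 accessory subunits and 8 assembly factors), 4 to complex II, 8 to complex III, 16 to complex IV and 17 are named for complex V. Ndufa4, first described in complex I, was placed with complex IV. Cox7a2l, a factor of supercomplex assembly, and Atp5s and Atp5sl, which carry an ATP synthase name without being subunits, were counted under the complexes they are named for. Cyc1, the cytochrome c1 subunit of complex III, is outside the rule and is given among the electron carriers.

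The respiratory chain passes electrons from NADH (complex I) and succinate (complex II) through ubiquinone, complex III and cytochrome c to oxygen at complex IV. Complexes I, III and IV pump protons across the inner mitochondrial membrane, and complex V uses the gradient to make ATP. Complex II is wholly nuclear, while the other complexes mix nuclear subunits with a few hydrophobic ones translated inside the mitochondrion, so that transcripts of both genomes are needed. Lymphocytes at rest draw much of their ATP from this route, and activated ones add glycolysis to it.

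RNA had been sequenced from 6 libraries. The 3 naive libraries are labelled solvent and day 0, and the 3 memory libraries are labelled with an agent named only as OXA and day 30, so agent and time cannot be told apart. The labels give the tissue as liver and the cells as lymphocytes. Strain, age, the sort of the cells and whether each library came from its own animal are not stated in the labels. The p-values below therefore hold for the spread among these 6 libraries, and that spread may be technical. Assigned reads numbered 18697093 to 23795266 per library. The summed level of 8 ILC1 markers was 964 to 1011.9 RPKM (read density per length of exon at equal library size) in naive and 972 to 1012.1 RPKM in memory libraries. Most of that sum came from Ncr1 (mean 488 against 505 RPKM) and Klrb1c (133 against 131 RPKM). Of the 8 markers 1 was called, Cxcr6, which was lower in memory (mean 58.8 against 48 RPKM, log2 difference -0.29, limma adjusted p = 0.0144). The summed markers of most other cell types moved with the groups. The 17 macrophage and monocyte markers summed to 63.5 to 70.3 RPKM in naive and 545 to 572 RPKM in memory libraries, with 13 of the 16 tested markers called higher. Most of that sum came from Lyz2 (mean 37.8 against 448 RPKM), and Vsig4, Cd5l and C1qb were not called. The 5 natural killer cell markers summed to 13 to 15.8 against 29.8 to 34.1 RPKM. Itgam, Cx3cr1 and S1pr5 were called higher, while Itga2 (mean 5.91 against 6.04 RPKM) and Eomes (0.81 against 1.19 RPKM) were not called. The 4 neutrophil markers summed to 0.385 to 0.68 against 1.53 to 2.12 RPKM. Only Csf3r was tested, and it was called higher (mean 0.17 against 1.55 RPKM). S100a8 and Mpo stood at 0 RPKM in every memory library, and S100a9 overlapped between groups. The 8 hepatocyte markers summed to 25.1 to 27.6 against 33.4 to 34.6 RPKM, mostly from Trf (mean 21.8 against 23.2 RPKM, not called), with Alb called higher. The 8 markers of dividing cells summed to 253 to 261 against 190 to 194 RPKM. Of these, 5 were called lower (Stmn1, Pcna, Mcm3, Mcm6 and Top2a). Mki67 (mean 36.8 against 28.6 RPKM), Ccnb1 (0.742 against 0.604 RPKM) and Cdk1 (2.05 against 2.13 RPKM) were not called. The 2 B cell markers stood at 0.707 to 1.45 against 0.689 to 1.35 RPKM. No marker of these lists was at 0 in every library. Their part in the results below was not tested, and in bulk RNA fewer cells of a type and less RNA per cell cannot be told apart.

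Part of the mitochondrial genome has a near-identical copy on mouse chromosome 1, and the copies have rows of their own in the table. The sequences of 3 gene and copy pairs are shown because the mitochondrial values turn on them; they were read from GENCODE M21 transcripts (GRCm38, the assembly also called mm10), 5′ to 3′ on the strand of the gene. The first pair is mt-Co1 at chrM:6381-6440 (plus strand) and its copy Gm29216 at chr1:24616138-24616197 (minus strand), with differing bases in capitals.
mt-Co1: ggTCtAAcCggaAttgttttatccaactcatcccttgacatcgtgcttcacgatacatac
Gm29216: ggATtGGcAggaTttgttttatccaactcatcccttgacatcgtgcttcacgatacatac
The second pair is the start of mt-Atp6 at chrM:7927-7986 (plus strand) and of its copy Gm10925 at chr1:24614592-24614651 (minus strand), which have no differing base.
mt-Atp6: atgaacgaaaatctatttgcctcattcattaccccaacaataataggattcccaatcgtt
Gm10925: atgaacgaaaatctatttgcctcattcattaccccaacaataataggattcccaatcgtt
The third pair is the start of mt-Nd3 at chrM:9459-9488 (plus strand) and of its copy Gm28438 at chr1:24613090-24613119 (minus strand), again with the differing base in capitals.
mt-Nd3: atTaacctgtacactgttatcttcattaat
Gm28438: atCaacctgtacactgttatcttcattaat
Over their whole annotated length the copies of mt-Co2 (Gm28661, 681 bases), mt-Atp6 (Gm10925, 678 bases), mt-Co3 (Gm28437, 783 bases), mt-Nd4l (Gm10222, 294 bases) and mt-Nd4 (Gm28439, 876 bases) were 100% identical to the mitochondrial gene. The copy of mt-Nd3 matched at 344 of 345 bases, the exception being T3C counted from the first base of the gene. Gm29216 covers 492 bases of mt-Co1 and matched at 486 of them. All 6 differences lie in its first 13 bases, and the 479 bases after them are identical. A read inside the identical stretches cannot be told apart by its sequence.

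Beside these sequences the table split the mitochondrially encoded genes into a high and a low set. In RPKM over the 6 libraries, 8 genes stood at 413 or above: mt-Co1 (1356.4 to 1796.5), mt-Nd6 (982 to 1453.2), mt-Nd1 (889 to 1151.7), mt-Nd4l (785 to 1025.4), mt-Cytb (625 to 749), mt-Nd4 (488 to 705), mt-Nd5 (473 to 699) and mt-Nd2 (413 to 572). The other 5 stood at 17.7 or below: mt-Nd3 (6.64 to 17.7), mt-Atp8 (5.15 to 11), mt-Atp6 (6.66 to 9.31), mt-Co3 (1.02 to 3.34) and mt-Co2 (1.8 to 3.09). The low set does not follow the complexes, since mt-Co1 was the highest of the 13 genes and mt-Co2 and mt-Co3, the other mitochondrial subunits of complex IV, were the lowest. The copies of mt-Atp6, mt-Co2 and mt-Co3 stood far above these genes, at 3532.2 to 4427.8 RPKM for Gm10925, 890 to 1126 RPKM for Gm28661 and 764 to 1042.6 RPKM for Gm28437, while Gm28438, the copy of mt-Nd3, stood at 5.49 to 11.4 RPKM. Summed over the libraries, the copy held 99.8% of the reads of the pair for mt-Co2, for mt-Atp6 and for mt-Co3. It held 46.3% for mt-Nd3, 14.4% for mt-Co1, 0.417% for mt-Nd4l and 0.102% for mt-Nd4. With the reads of each pair added, mt-Co2 stood at 888 to 1122.9 RPKM, mt-Co3 at 764 to 1044.6 RPKM and mt-Atp6 at 3524.3 to 4417.1 RPKM, within or above the range of the 8 high genes. The mt-Nd3 pair stayed low, at 13.5 to 25.3 RPKM. A copy of mt-Atp8, which lies between mt-Co2 and mt-Atp6, was not analysed here. How the counting placed reads with more than 1 matching position is not stated in the labels or headers, so the 5 low genes and the copies are treated as uncertain in what follows.

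**Figure D1:**
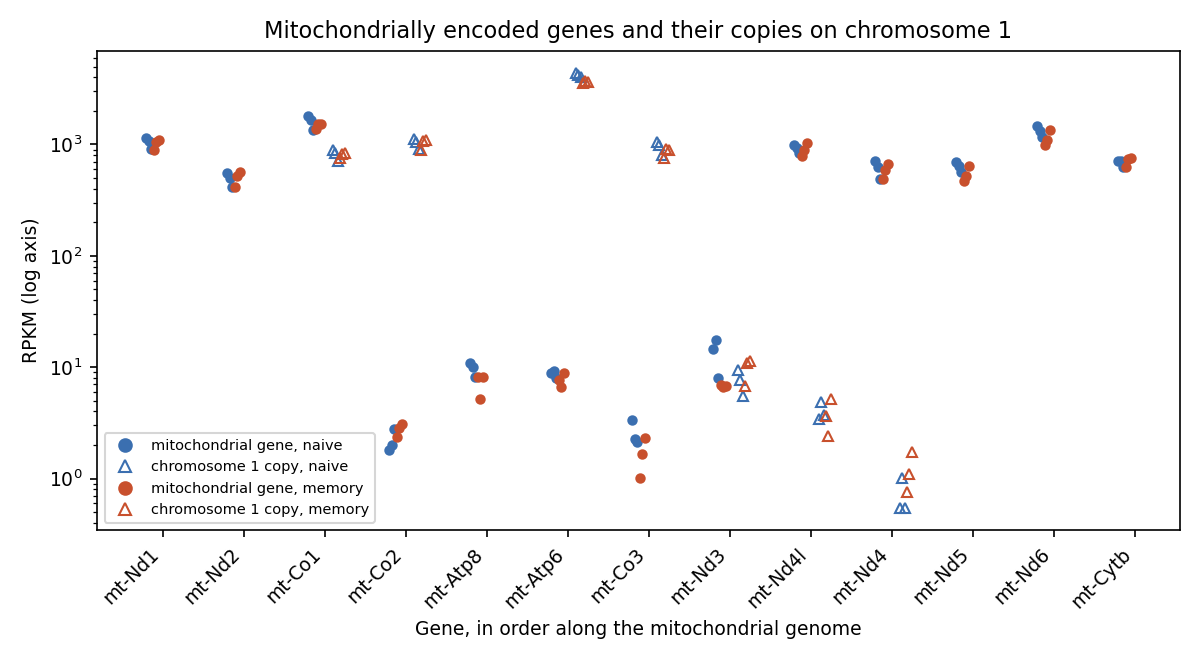
Level of each mitochondrially encoded gene (filled circles) and of its copy on chromosome 1 (open triangles) in RPKM on a log axis, 1 symbol per library, blue for naive and red for memory, in order along the mitochondrial genome. The copies of mt-Co2, mt-Atp6 and mt-Co3 sit at 764 RPKM or above while the genes themselves sit at 9.31 RPKM or below.

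Between memory and naive cells the respiratory chain transcripts differed little. Of the 102 genes 99 had a mean of at least 0.5 RPKM and were tested by limma on log2(RPKM + 1), a scale on which the pseudocount shrinks the change of genes with low values. Differences are given as memory minus naive. P-values were adjusted over all 13793 genes tested, and a gene was called at an adjusted p under 0.05. A single one was called, Atp5b, the catalytic β subunit of ATP synthase, which was lower in memory cells. Over all genes 575 were called, or 4.17%, with 441 higher in memory (3.2%) and 134 lower (0.972%). A count of 1 in 99 lies below the share for both directions together. For the lower direction alone it is close to the share, and 0 of the 99 genes were called higher. At an unadjusted p under 0.05 there were 9 of the 99 genes (Atp5b, Cox6a2, Ndufs6, mt-Nd3, Ndufb4, Atp5h, Uqcrc1, Atp5a1 and Ndufb3), against 2418 of 13793 genes. The values of memory and naive libraries did not overlap for 12 of the 99 genes, 5 with memory above and 7 with naive above, against 24.1% of all genes tested, 14.9% with memory above and 9.24% with naive above. Limma's voom on whole reads recovered from the table, an alternative chosen after seeing the data, called 8.3% of all genes and 3 of these 99, adding Uqcrc1 and mt-Nd5, both lower.

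The 86 tested nuclear genes split evenly, 43 with a positive and 43 with a negative difference, and their median log2 difference was 0.001, from -0.23 to 0.47. The median over all genes tested was 0.016. Of the 86 genes 81, or 94.2%, differed by less than 0.25 on that scale, against 82.4% of all genes tested. The median coefficient of variation of RPKM among the nuclear genes was 6.02% in naive and 8.35% in memory libraries, against 9.21% and 8.46% over all genes. The median standard error of a nuclear gene's log2 difference was 0.0883. By complex, the median log2 difference was 0.006 for complex I (26 positive, 18 negative), -0.015 for complex II, -0.066 for complex III, 0.061 for complex IV and -0.024 for complex V (5 positive, 12 negative). Under median ratio scaling the complex I median was -0.02 and the median of all nuclear genes -0.027, so these signs are not fixed by the data. The medians of complexes III and V were below 0 and that of complex IV above 0 under every scaling tried. Leaving out memory replicate 1 or naive replicate 1 turned the complex V median to 0.014 and 0.013.

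**Figure D2:**
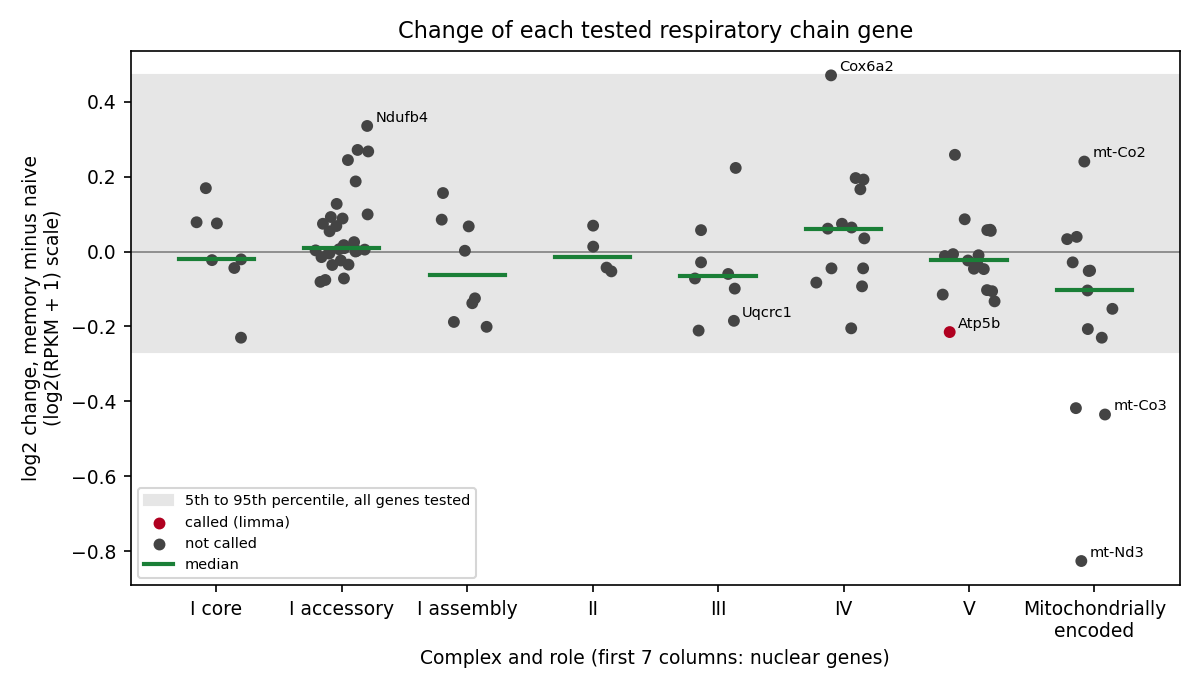
Difference between memory and naive means (log2 of RPKM + 1) of each tested gene, by complex and role; green bars are medians, the grey band runs from the 5th to the 95th percentile of all genes tested (-0.269 to 0.471) and red marks the gene called by limma. The nuclear genes lie within the band, Atp5b is the red point, and the genes beyond its lower edge are mt-Nd3, mt-Co3 and mt-Atp8.

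Complex V held the called gene and 3 of the 4 most abundant nuclear transcripts (Atp5h, Atp5b and Atp5a1), the other being Uqcrb of complex III. Atp5b (chr10:128083273-128090391, plus strand) stood at 192, 201 and 199 RPKM in naive replicates 1 to 3 and at 177, 165 and 168 RPKM in memory replicates 1 to 3. All 3 memory values lay below all 3 naive values. The means were 197 ± 4.51 and 170 ± 6.22 RPKM (SD, n = 3 each), and the log2 difference was -0.22 (SE 0.038, limma adjusted p = 0.0303). The call did not hold in every fit: leaving out memory replicate 2 gave an adjusted p of 0.113, leaving out memory replicate 3 gave 0.11, and leaving out naive replicates 1, 2 and 3 in turn gave 0.0609, 0.12 and 0.085. It was 0.0544 without a filter on low values and 0.143 after quantile normalization, within a range of 4.98e-05 to 0.143 over the alternatives. The log2 difference stayed between -0.24 and -0.15.

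The other subunits of ATP synthase did not pass the test. Atp5h, subunit d of the peripheral stalk, was the highest nuclear gene of the 89, at 316, 301 and 298 RPKM in naive and 288, 288 and 275 RPKM in memory libraries. Its groups did not overlap, and its log2 difference was -0.10 (SE 0.038, limma adjusted p = 0.223). Atp5a1, the α subunit that alternates with β in the catalytic ring, measured 163, 157 and 145 RPKM in naive and 147, 140 and 136 RPKM in memory libraries. Here naive replicate 3 fell below memory replicate 1, so the groups overlapped, with a log2 difference of -0.13 (SE 0.052, adjusted p = 0.253). The γ subunit Atp5c1 of the central stalk stood at 78.4 to 87.4 RPKM over all 6 libraries with a log2 difference of -0.02 (SE 0.047, adjusted p = 0.853). Atp5j, at a like level, had a positive log2 difference of 0.06 (SE 0.059, adjusted p = 0.683). The largest positive value of complex V was that of Atp5k, subunit e of the membrane part, at 0.26 (SE 0.16, adjusted p = 0.472). The shares of assigned reads sum up the complex. The 17 genes took 0.274%, 0.271% and 0.268% of reads in naive and 0.255%, 0.254% and 0.247% in memory libraries, with no overlap. Without Atp5b the shares were 0.193%, 0.186% and 0.184% against 0.18%, 0.184% and 0.176%, where the lowest naive and highest memory library meet. The c-ring subunit has 3 genes, which encode the same mature protein with different targeting sequences. Of their summed RPKM Atp5g3 made up 57.7% to 67.5%, Atp5g2 25.7% to 36.5% and Atp5g1 4.02% to 7.52% over the 6 libraries, with overlapping groups.

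**Figure D3:**
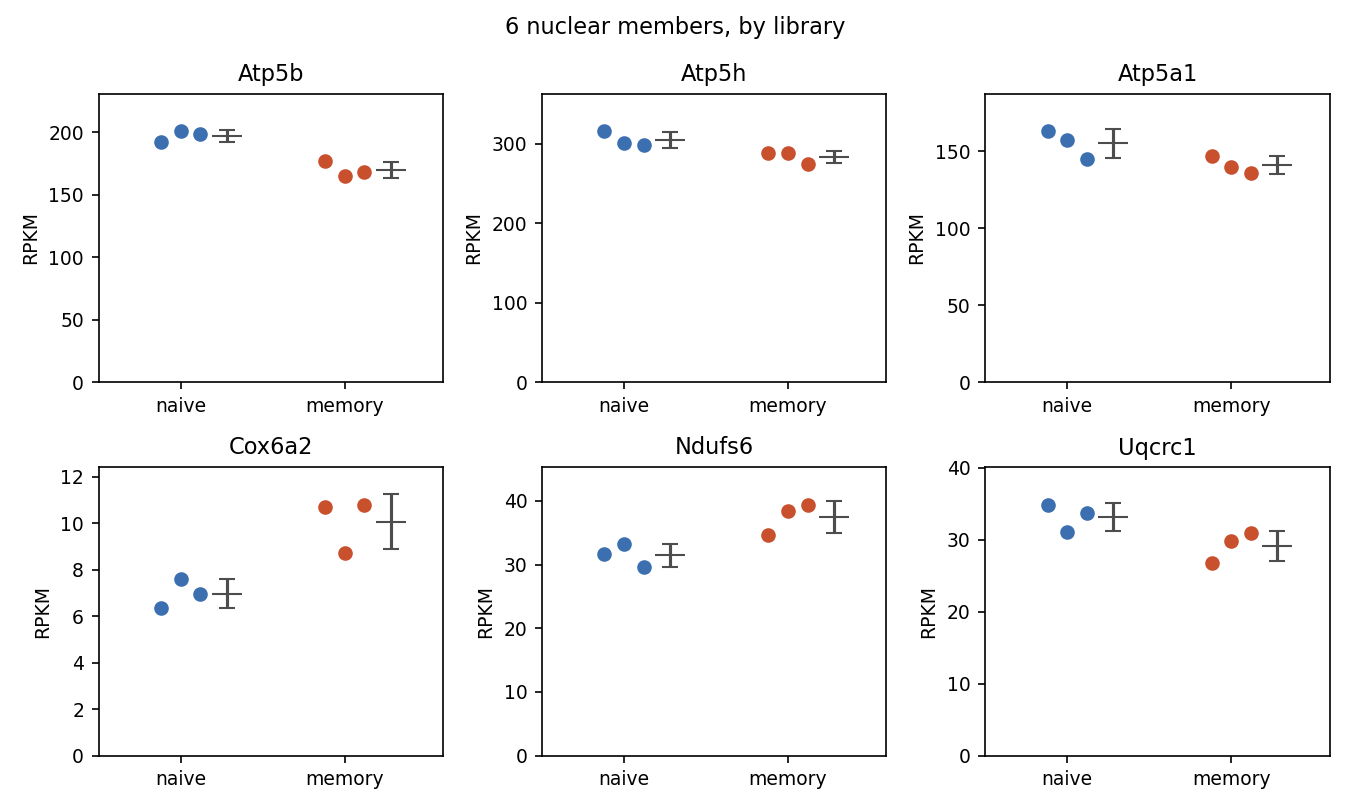
RPKM of 6 nuclear genes in each library (points, blue naive and red memory; the bar beside them is the mean with the SD, n = 3 each), on axes that start at 0. Atp5b, Atp5h and Uqcrc1 show all memory points below the naive ones, Cox6a2 and Ndufs6 show them above, and the groups of Atp5a1 overlap.

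In complex IV the gene with the largest difference was Cox6a2 (chr7:128205435-128206387, minus strand), known as the heart and skeletal muscle form of subunit VIa. It measured 6.37, 7.59 and 6.96 RPKM in naive and 10.7, 8.71 and 10.8 RPKM in memory libraries. Every memory library was above every naive one, memory replicate 2 being the nearest to them. The log2 difference of 0.47 (SE 0.099) missed the threshold, with a limma adjusted p of 0.0538. Leaving out memory replicate 2 gave 0.56 and an adjusted p of 0.043, in a range of 0.043 to 0.174 over the alternatives. Cox6a1, the form found in most tissues, stood at 21.0 to 23.9 RPKM, and Cox6a2 made up 23.3%, 26.3% and 23.0% of the 2 forms' summed RPKM in naive and 30.9%, 27.3% and 32.9% in memory libraries. The muscle markers Ckm, Acta1, Myh6 and Tnnt2 together summed to 0.271 to 0.554 RPKM in naive and 0.323 to 0.601 RPKM in memory libraries, and none of them reached the mean needed for a test. Exons of Cox6a2 overlap those of Itgad on the opposite strand. Itgad, which encodes an integrin α chain, stood at 8.67 to 9.69 RPKM with a log2 difference of -0.05 (SE 0.059, adjusted p = 0.767).

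The remaining paired forms of complex IV were lopsided in both groups. Cox4i1 measured 114, 110 and 114 RPKM in naive and 114, 111 and 103 RPKM in memory libraries (log2 difference -0.05, SE 0.046), while Cox4i2, the form known for its expression in lung, had 0 reads over the naive and 1 read over the memory libraries. Cox6b1 measured 40.3, 40.8 and 40.8 RPKM in naive and 39.6, 36.6 and 38.9 RPKM in memory libraries, a small step down without overlap (log2 difference -0.08, SE 0.042, adjusted p = 0.369), and its testis form Cox6b2 had 16 reads over the naive and 2 over the memory libraries. Cox7a1, the muscle and heart form, had 15 and 7 reads, against 6.23 to 9.93 RPKM for Cox7a2. A floor of 3 reads equals 0.126 to 0.16 RPKM for a gene with 1 kilobase of exon, so levels of these 3 untested genes are at the limit of the depth. Ndufa4 measured 9.8, 9.93 and 9.77 RPKM in naive and 9.85, 11.4 and 12.4 RPKM in memory libraries, with memory replicate 1 among the naive values (log2 difference 0.17, SE 0.083, adjusted p = 0.366). Cox5b, a zinc-binding subunit and the next in level after Cox4i1, measured 82.9, 84.1 and 85.5 against 84.3, 93.3 and 81.6 RPKM (log2 difference 0.04, SE 0.054). Cox8a, a small membrane subunit, measured 29.4, 28.3 and 25.1 against 26.2, 24.6 and 20.9 RPKM, overlapping at naive replicate 3 (log2 difference -0.21, SE 0.095, adjusted p = 0.332). The supercomplex factor Cox7a2l stood at 41.2 to 51.7 RPKM and did not pass the test.

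Complex I gave no called gene among its 44 nuclear genes. Its 7 core subunits, which form the electron path of the matrix arm, had a median log2 difference of -0.02, the lowest being Ndufs7 at -0.23 (SE 0.119, limma adjusted p = 0.385). No core subunit had groups without overlap. The 29 accessory subunits had a median of 0.009, and 3 of them (Ndufa8, Ndufb4 and Ndufs6) had memory above naive in every library, a share below the 14.9% of all genes tested. Ndufs6, a zinc-binding subunit needed for late assembly of the matrix arm, measured 31.6, 33.2 and 29.6 RPKM in naive and 34.6, 38.4 and 39.4 RPKM in memory libraries. Its log2 difference was 0.24 (SE 0.066, adjusted p = 0.109). Ndufb4, of the membrane arm, measured 9.37, 9.37 and 11.0 against 11.1, 12.7 and 14.6 RPKM, with naive replicate 3 just under memory replicate 1 (log2 difference 0.34, SE 0.108, adjusted p = 0.171). Ndufb3, also of the membrane arm, overlapped between groups at 15.0, 13.5 and 12.3 against 16.9, 18.7 and 14.2 RPKM (log2 difference 0.27, SE 0.111, adjusted p = 0.28). Ndufa13, the most abundant of the 44 genes, measured 96.5, 85.2 and 86.3 against 89.3, 101 and 81.7 RPKM (log2 difference 0.02, SE 0.085). Ndufa2, the next, measured 76.2, 78.6 and 79.7 against 67.6, 81.5 and 80.2 RPKM (log2 difference -0.04, SE 0.073). In both the groups overlapped. The 8 NDUFAF assembly factors had a median of -0.06, with Ndufaf4 above and Ndufaf7 below the naive values in every memory library and neither past the test (adjusted p = 0.453 and 0.319).

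Complexes II and III, which feed and empty the ubiquinone pool, also gave no call. Sdha, the flavoprotein of succinate dehydrogenase, was measured with little spread, at 75.6, 73.0 and 74.1 RPKM in naive and 72.0, 70.1 and 72.5 RPKM in memory libraries. The groups did not overlap, but the step was small (log2 difference -0.05, SE 0.033, limma adjusted p = 0.478). The iron-sulphur subunit Sdhb measured 18.2, 15.5 and 15.7 against 18.8, 17.7 and 15.4 RPKM (log2 difference 0.07, SE 0.092). The membrane anchor Sdhd measured 15.3, 15.1 and 13.3 against 16.3, 13.6 and 12.5 RPKM (log2 difference -0.04, SE 0.102), a sign that turned to 0.03 without memory replicate 3. The other anchor, Sdhc, differed by 0.01 (SE 0.088). In complex III, Uqcrc1, a core protein of the matrix side, measured 34.9, 31.1 and 33.7 RPKM in naive and 26.8, 29.8 and 30.9 RPKM in memory libraries. Its groups lay apart by a narrow margin (log2 difference -0.19, SE 0.068, adjusted p = 0.224; with voom on recovered reads -0.19 and adjusted p = 0.0447, in a range of 0.0447 to 0.42 over the alternatives). Its partner Uqcrc2 stood at 17 to 18.6 RPKM with a log2 difference of -0.03 (SE 0.05). Uqcrb, the highest of the complex, measured 190, 216 and 227 against 200, 210 and 197 RPKM (log2 difference -0.06, SE 0.067), and Uqcrh, the hinge protein at cytochrome c1, measured 96.7, 92.8 and 102 against 96.5, 106 and 101 RPKM (log2 difference 0.06, SE 0.05). The small subunit Uqcr10 measured 14.5, 14.8 and 12.6 against 14.3, 12.4 and 9.49 RPKM (log2 difference -0.21, SE 0.141; -0.06 without memory replicate 3), and Uqcr11 measured 41.6, 29.2 and 43.3 against 42, 45.6 and 44.2 RPKM (log2 difference 0.22, SE 0.141; 0.05 without naive replicate 2).

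None of the 13 mitochondrially encoded genes was called. Their median log2 difference was -0.104, with 3 positive and 10 negative values, and -0.09 with the reads of the chromosome 1 copies added. The median was -0.018 after quantile normalization, -0.016 without naive replicate 1, -0.206 without naive replicate 3, -0.059 without memory replicate 1 and -0.159 without memory replicate 3, so its size rests on single libraries and on the scaling. The spread between libraries of 1 group was larger than for the nuclear genes, with a median coefficient of variation of 14% in naive and 14.8% in memory libraries. The 13 genes took 0.859%, 0.791% and 0.67% of assigned reads in naive and 0.643%, 0.738% and 0.794% in memory libraries. Naive replicate 3 and memory replicate 1 were the lowest, and the groups overlapped over most of their range. Taking the copies in, the shares were 1.36%, 1.27% and 1.11% against 1.04%, 1.17% and 1.23%. The 89 nuclear genes took 0.609%, 0.598% and 0.601% against 0.58%, 0.596% and 0.571%, a narrower range in which all memory libraries lay below all naive ones by a small margin (log2 ratio of the means -0.05). Most of that step lay in complex V, with mean shares of 0.271% in naive and 0.252% in memory libraries (Atp5b alone, 0.0836% and 0.072%). Mean shares were 0.0374% and 0.0365% for complex II and 0.0588% and 0.0565% for complex III. Those of complex I (0.166% and 0.168%) and complex IV (0.0696% and 0.0699%) did not fall. The log2 ratio of mitochondrially encoded to nuclear reads was 0.50, 0.40 and 0.16 in naive and 0.15, 0.31 and 0.48 in memory libraries, with overlapping groups.

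**Figure D4:**
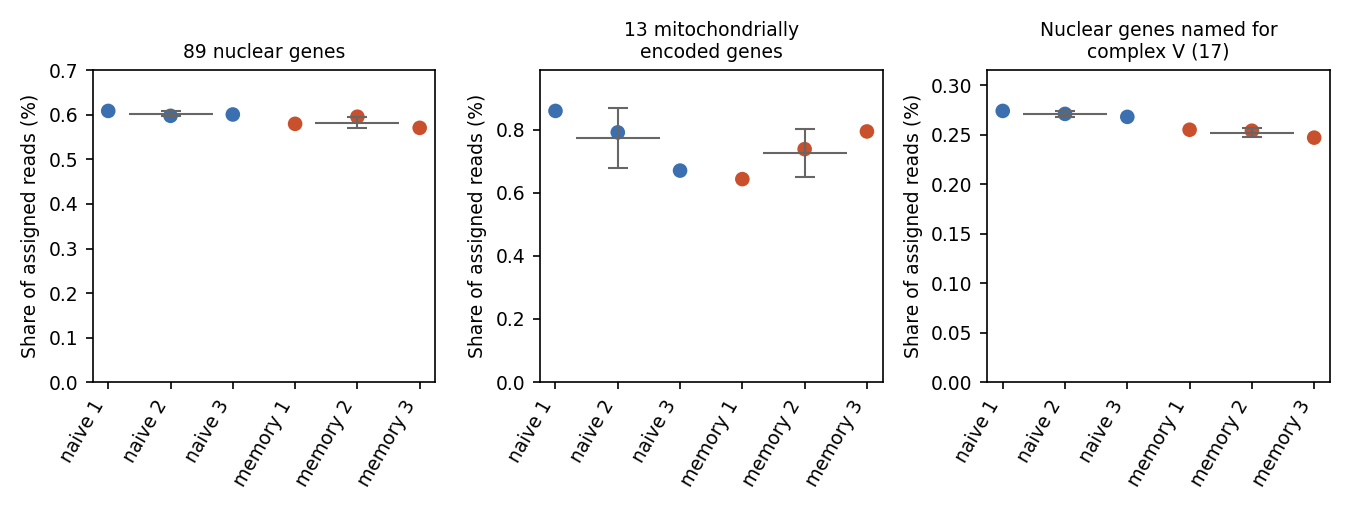
Share of each library's assigned reads (in %, axes from 0) taken by the 89 nuclear genes, the 13 mitochondrially encoded genes and the 17 nuclear genes named for complex V; points are libraries, the grey bar and whiskers are the group mean and SD (n = 3 each). The nuclear share stays between 0.571% and 0.609%, the mitochondrially encoded share runs from 0.643% to 0.859% with overlapping groups, and the complex V share lies lower in all 3 memory libraries.

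Within each group the 8 abundant mitochondrial genes went up and down together from library to library. Their median deviation from the gene's own mean on the log2 scale was 0.20, 0.08 and -0.15 in naive and -0.23, 0.00 and 0.14 in memory libraries, a range wider than the median difference between the groups (-0.05). Memory replicate 1 was the lowest library for 6 of the 8 genes and naive replicate 3 for the other two. The highest library was naive replicate 1 for 5 of them and memory replicate 3 for 3. The mitochondrial rRNAs, mt-Rnr1 and mt-Rnr2, kept a like order, with 0.00751%, 0.00736% and 0.0058% of reads in naive and 0.00474%, 0.00565% and 0.00683% in memory libraries.

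Among complex I subunits mt-Nd5 measured 699, 637 and 564 RPKM in naive and 473, 518 and 636 RPKM in memory libraries (log2 difference -0.23, SE 0.122, limma adjusted p = 0.394; with voom -0.23 and adjusted p = 0.0219, in a range of 0.0219 to 0.639 over the alternatives). Its neighbour on the opposite strand, mt-Nd6, with overlapping exons, measured 1453.2, 1320.7 and 1174.1 against 982, 1098.4 and 1358.1 RPKM (log2 difference -0.21, SE 0.129). For both, memory replicate 3 lay among the naive values. The other abundant membrane-arm subunits all overlapped between groups. In RPKM, mt-Nd1 measured 1151.7, 1075.9 and 914 against 889, 1048.4 and 1090.5 (log2 difference -0.05, SE 0.107). For mt-Nd2 the values were 555, 502 and 413 against 414, 520 and 572 (0.03, SE 0.146). For mt-Nd4 they were 705, 622 and 490 against 488, 590 and 671 (-0.05, SE 0.159), and for mt-Nd4l 988, 924 and 841 against 785, 897 and 1025.4 (-0.03, SE 0.104). The signs of mt-Nd1, mt-Nd4 and mt-Nd4l turned when naive replicate 1 or memory replicate 1 was left out, giving 0.02 and 0.04, 0.07 and 0.07, and 0.03 and 0.07. That of mt-Nd2 turned without naive replicate 3 (-0.09) and without memory replicate 3 (-0.07). Cytochrome b, mt-Cytb, the mitochondrial subunit of complex III, measured 717, 708 and 631 RPKM in naive and 625, 742 and 749 RPKM in memory libraries (log2 difference 0.04, SE 0.084), and its sign turned without naive replicate 3 (-0.02) and without memory replicate 3 (-0.01). The catalytic subunit of complex IV, mt-Co1, measured 1796.5, 1649.7 and 1356.4 against 1389.0, 1540.1 and 1512.6 RPKM. Its groups overlapped (log2 difference -0.10, SE 0.103, adjusted p = 0.667).

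The largest difference among the 99 tested genes was that of mt-Nd3, one of the 5 low and uncertain genes. It measured 14.6, 17.7 and 8.02 RPKM in naive and 6.9, 6.64 and 6.8 RPKM in memory libraries, from 95, 125 and 59 reads against 51, 55 and 47. The memory libraries were all below the naive ones, though naive replicate 3 was close to them. The log2 difference was -0.83 (SE 0.248, limma adjusted p = 0.145). Leaving out naive replicate 3 gave -1.13 and an adjusted p of 0.00393, in a range of 0.00393 to 0.59 over the alternatives. Its copy Gm28438, which differs by the single base shown above, measured 9.46, 7.7 and 5.49 against 6.82, 11.0 and 11.4 RPKM. The summed pair measured 24, 25.3 and 13.5 against 13.7, 17.5 and 18.1 RPKM, where the groups overlapped (log2 difference -0.29, SE 0.235, adjusted p = 0.59).

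The remaining low genes rested on few reads, 23 to 46 per library for mt-Co2, 17 to 49 for mt-Co3, 25 to 42 for mt-Atp8 and 108 to 129 for mt-Atp6. In RPKM, mt-Co2, which carries the copper site that takes electrons from cytochrome c, measured 1.8, 2.01 and 2.77 against 2.34, 2.83 and 3.09 (log2 difference 0.24, SE 0.141). For mt-Co3 the values were 3.34, 2.26 and 2.11 against 1.02, 1.66 and 2.31 (-0.43, SE 0.212), for mt-Atp8 11, 10.1 and 8.12 against 8.08, 5.15 and 8.15 (-0.42, SE 0.179), and for mt-Atp6 8.8, 9.31 and 7.99 against 7.67, 6.66 and 8.95 (-0.15, SE 0.107). The groups of all 4 overlapped and none passed the test. With the copies added the differences became -0.01 for mt-Co2 and -0.14 for mt-Co3. For mt-Atp6, the proton channel subunit of ATP synthase, the summed pair measured 4417.1, 4206.6 and 4053.3 RPKM in naive and 3524.3, 3694.6 and 3662.8 RPKM in memory libraries. All memory values of the pair lay below the naive ones, and the sum would be called at a log2 difference of -0.22 (SE 0.044, limma adjusted p = 0.0446), against an adjusted p of 0.53 for mt-Atp6 as deposited and a range of 0.0446 to 0.833 over the alternatives. Since 99.8% of these reads are assigned to Gm10925, this is the difference of that row, -0.22 with an adjusted p of 0.0453.

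Other genes that serve the chain were read from the same fit. Over all genes tested, limma called 3.2% higher and 0.972% lower, voom called 8.3%, and 2418 of 13793 had an unadjusted p under 0.05. Of 39 tested assembly factors outside the name rule 0 were called higher and 1 lower, with a median log2 difference of 0.005. The called gene was Coa6, a copper-handling factor for complex IV, at 16.2, 18.5 and 18.1 RPKM in naive and 13.5, 12.7 and 13.6 RPKM in memory libraries, without overlap (log2 difference -0.38, SE 0.064, limma adjusted p = 0.024). Its adjusted p was 0.078 with voom and, over all alternatives, ranged from 0.0202 to 0.0989. It rose above the threshold when any library but naive replicate 1 was left out, at 0.0691, 0.0973 and 0.076 without memory replicates 1, 2 and 3 and 0.0936 and 0.0794 without naive replicates 2 and 3. Surf1, also for complex IV, and Sdhaf1, for complex II, followed with log2 differences of -0.22 (adjusted p = 0.105) and 0.54 (adjusted p = 0.115). Sdhaf1 measured 11.3, 13.2 and 8.44 against 15.7, 15.1 and 17.6 RPKM, without overlap, and was the gene of this list that voom called (0.58, adjusted p = 0.000687). Of 19 electron carrier and ubiquinone genes none was called by limma, with 1 at an unadjusted p under 0.05 and 1 called by voom, both of them Cycs. Cycs, cytochrome c, measured 23.0, 22.4 and 21.1 RPKM in naive and 26.4, 26.7 and 25.3 RPKM in memory libraries. All memory libraries were higher, with a log2 difference of 0.23 (SE 0.048, adjusted p = 0.0538; 0.0105 with voom). Cyc1 measured 18.6 to 19.9 against 17.5 to 18.4 RPKM (log2 difference -0.11, SE 0.048, adjusted p = 0.305).

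Of 18 tricarboxylic acid cycle genes none was called by limma (2 at an unadjusted p under 0.05, 1 called by voom), and their median was -0.03. The shares over all genes tested were 4.17% by limma, 8.3% by voom and 2418 of 13793 at an unadjusted p under 0.05. Pdhb of pyruvate dehydrogenase (0.20, limma adjusted p = 0.0651) and Dlst of oxoglutarate dehydrogenase (-0.17, adjusted p = 0.0967) came nearest, in opposite directions. Of 20 genes for mitochondrial DNA maintenance and transcription none was called by limma (3 at an unadjusted p under 0.05, 2 by voom). Their median of 0.112 was the highest of these lists, with 14 positive values and 6 genes whose memory libraries were all above the naive ones, against 7529 positive values and 14.9% with memory above among the 13793 genes tested. The helicase Twnk measured 5.75, 6.05 and 6.36 RPKM in naive and 7.88, 7.71 and 7.25 RPKM in memory libraries (log2 difference 0.29, SE 0.065, adjusted p = 0.0659), and Tk2, mitochondrial thymidine kinase, 13.6, 15.6 and 14.7 against 16.7, 18.1 and 19.6 RPKM (log2 difference 0.29, SE 0.074, adjusted p = 0.0974). The transcription factor Tfb2m had 0.29 as well (adjusted p = 0.14). Of 18 genes for mitochondrial RNA processing none was called by limma (3 at an unadjusted p under 0.05, 0 by voom), with a median of 0.046. Here too 14 values were positive. Of 8 uncoupling and exchange carriers none was called by limma (2 at an unadjusted p under 0.05), with a median of -0.023. In that last list voom called Slc25a51, the mitochondrial NAD carrier (0.32, adjusted p = 0.0169), and Ucp2, an uncoupling protein family member (-0.15, adjusted p = 0.0283).

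Of 14 nuclear regulators 1 was called, against 4.17% of all genes tested in either direction and 3.2% called higher. It was Nfe2l2, the oxidative stress factor NRF2, which stood higher in memory cells at 12.9, 13.9 and 13.6 RPKM in naive and 16.0, 16.0 and 17.3 RPKM in memory libraries. Its log2 difference was 0.27 (SE 0.054, limma adjusted p = 0.0422), and leaving out any single library moved its adjusted p to 0.0954 to 0.136 (memory replicate 1, 0.0954; memory replicate 2, 0.115; memory replicate 3, 0.136; naive replicates 1 to 3, 0.123, 0.099 and 0.0975). It was 0.0611 under median ratio scaling, 0.088 after quantile normalization, 0.0544 without a filter and 0.00792 with voom. Tfe3, a factor of lysosomal and mitochondrial gene programmes, measured 2.32, 2.09 and 2.32 against 3.03, 3.46 and 3.03 RPKM, with every memory library higher (log2 difference 0.36, SE 0.087, adjusted p = 0.0779; 0.00139 with voom). The factors best known for the chain were close to level. Nrf1 measured 6.49 to 6.81 against 6.06 to 6.36 RPKM (log2 difference -0.08, adjusted p = 0.534), Gabpa 19.7 to 21.8 against 20.9 to 22.2 RPKM (0.06), Yy1 56.0 to 64.9 against 57.8 to 63.3 RPKM (-0.00) and Esrra 7.16 to 8.29 against 7.22 to 8.62 RPKM (-0.01). Ppargc1a, the coactivator PGC-1α, was at 0.0893 RPKM or below in every library and was not tested.

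Promoters of the nuclear genes were searched for the short motifs of these factors, because members of the chain could share letters there that the name rule did not use. RefSeq windows on GRCm38.p6, from 250 bases before to 50 bases after the start, matched 75 of the 89 genes. The motifs were CGCATGCG (the NRF1 core, its own reverse complement), CCGGAAG (ETS factors such as GABPA), AAGATGGCG (YY1) and TCAAGGTCA (the ERR family), on both strands. CGCATGCG stood in 11 of 75 genes (14.7%), against 2.07% of all promoters and 4.84% of those of tested coding genes. AAGATGGCG stood in 9 (12%), against 1.64% and 4.09%. CCGGAAG stood in 18 (24%), against 9.93% and 22.8%, so its share among tested coding genes was close to that among the members. TCAAGGTCA stood in 2 (2.67%), against 0.466% and 0.322%. At least 1 motif stood in 32 genes and none in 43.

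Of the promoters, 4 are printed, 5′ to 3′ on the gene's strand with motif matches in capitals: Atp5b as the called gene, Uqcrc1 as the gene that voom added, Cox6a1 as the abundant partner of Cox6a2, and Atp5j, a peripheral stalk subunit of ATP synthase, because it holds 3 of the motifs and lies head to head with Gabpa. Their windows are chr10:128083057-128083356 (plus strand), chr9:108936398-108936697 (plus strand), chr5:115348909-115349208 (minus strand) and chr16:84834927-84835226 (minus strand, 1 of 2 RefSeq starts).
Atp5b: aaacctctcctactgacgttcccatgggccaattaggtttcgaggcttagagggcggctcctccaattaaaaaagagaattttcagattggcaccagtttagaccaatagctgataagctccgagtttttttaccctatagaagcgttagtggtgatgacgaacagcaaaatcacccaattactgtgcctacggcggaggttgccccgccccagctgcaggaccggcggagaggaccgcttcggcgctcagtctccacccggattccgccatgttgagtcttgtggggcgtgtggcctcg
Uqcrc1: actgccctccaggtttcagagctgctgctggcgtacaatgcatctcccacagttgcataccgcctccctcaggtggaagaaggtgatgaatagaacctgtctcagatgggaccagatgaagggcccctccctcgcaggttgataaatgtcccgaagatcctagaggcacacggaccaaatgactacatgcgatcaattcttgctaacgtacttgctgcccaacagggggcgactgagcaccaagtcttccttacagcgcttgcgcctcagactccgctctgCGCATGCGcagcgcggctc
Cox6a1: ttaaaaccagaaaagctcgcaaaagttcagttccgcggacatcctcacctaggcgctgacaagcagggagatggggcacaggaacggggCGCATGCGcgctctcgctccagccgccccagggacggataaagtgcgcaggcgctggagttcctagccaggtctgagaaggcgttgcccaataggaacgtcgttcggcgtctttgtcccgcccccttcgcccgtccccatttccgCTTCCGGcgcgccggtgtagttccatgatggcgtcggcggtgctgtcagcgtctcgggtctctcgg
Atp5j: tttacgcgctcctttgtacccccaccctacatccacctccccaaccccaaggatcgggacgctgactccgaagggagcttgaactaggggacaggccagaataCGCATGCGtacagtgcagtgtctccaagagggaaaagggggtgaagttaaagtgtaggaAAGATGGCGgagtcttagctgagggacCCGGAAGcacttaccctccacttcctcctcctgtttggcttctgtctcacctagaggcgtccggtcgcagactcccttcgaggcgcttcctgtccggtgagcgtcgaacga
The Atp5b window holds none of the 4 motifs. The Uqcrc1 window holds the NRF1 core, the Cox6a1 window the NRF1 core and the ETS motif, and the Atp5j window the NRF1, YY1 and ETS motifs. Atp5j stood at 76.1 to 84 RPKM in naive and 78.3 to 88.9 RPKM in memory libraries (log2 difference 0.06, SE 0.059, limma adjusted p = 0.683), and Cox6a1 differed by 0.07 (SE 0.056, adjusted p = 0.566). A match is a description of letters and no proof of binding.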

How the data were processed

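Bulk RNA sequencing of 6 libraries was read from a single table. Per the labels' protocols total RNA was extracted in TRIzol and a stranded mRNA kit was used for the libraries. The authors deposited RPKM values per gene, each library scaled by its total of assigned reads. The submitters' processing notes list the build mm10 and the tools edgeR 3.12.1, featureCounts, Subread 1.5.1 and STAR 2.5.3a, without roles. The strand setting, the handling of reads with several matching positions and the annotation release are not stated there. Exons of 35 of the 102 genes overlap another gene, 27 of them on the opposite strand, and many have processed pseudogenes, so their reads could have been shared or lost. Per the file headers, gene positions and exon lengths accompany the values.

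The labels gave groups and replicate numbers. In units of the smallest step of a library, 100% of values came out as whole reads (tolerance 0.001 of a read). Because the values are RPKM, limma-trend was the test (limma 3.58.1, R 4.3.3) on log2(RPKM + 1), leaving out genes whose mean over the 6 libraries was under 0.5 RPKM, with Benjamini-Hochberg adjustment at 0.05 over 13793 genes. Fits with no replicate block were the main ones. The test was also run on simulated data, and the outcome is not given here. Alternatives covered pseudocount, filter, scaling, block, variance prior and leaving out each library. Voom on recovered reads stood in for a planned count model, and adding the chromosome 1 copies was an alternative chosen after seeing the data. Floors of 3 reads cover counting error only.

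The members and lists were chosen with earlier results of these data known. Genes given in full were the called ones, all mitochondrially encoded ones, the paired isoforms, the 3 with the smallest unadjusted p and the 2 with the highest mean in each complex, and up to 3 with the smallest p in each other list. Itgad, Gabpa, Nrf1, Yy1, Esrra, Ppargc1a and the promoters printed were added after values were seen. Promoters came from RefSeq (GRCm38.p6) and transcripts from GENCODE M21.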

Additional observations from a re-analysis of the deposited data

How the results depend on the processing

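Of 510 alternative values for single genes 465 kept direction and side of the threshold, 25 lost and 5 gained the call and 15 changed sign; of 170 summary values 139 did not move beyond their limits. The number called over all genes (575) was 1145 with voom on recovered reads, 271 with the replicate block and 275 to 387 when 1 library was left out. For the nuclear genes (1 called) it was 0 without a filter, 0 with quantile normalization, 0 with the replicate block, 2 with voom and 0 to 1 with 1 library left out. For the mitochondrially encoded genes (0 called, 1 at an unadjusted p under 0.05) it was 1 with the chromosome 1 copies added, 1 with voom and 0 to 1 with 1 library left out. Same-numbered libraries did not deviate together (correlations -0.084, -0.0395 and -0.00297), and pairs with different numbers gave -0.0784 to 0.109. With 3 libraries in each group this check cannot exclude a pairing by replicate number. Median log2 differences under median ratio scaling were -0.027 for the nuclear genes, 0.033 for complex IV and -0.053 for complex V, and that of complex IV was 0.032 without a filter. With 1 library left out they ran from -0.017 to 0.041 for complex I, 0.002 to 0.074 for complex IV and -0.054 to 0.014 for complex V. Signs turned under quantile normalization for mt-Nd1 (0.001), mt-Nd4 (0.029) and mt-Nd4l (0.052), and with the copies added for mt-Co2 (-0.014). With 1 library left out, log2 differences ran from -0.143 to 0.034 for Sdhd, -0.147 to 0.037 for mt-Nd1, -0.085 to 0.166 for mt-Nd2, -0.196 to 0.070 for mt-Nd4, -0.126 to 0.067 for mt-Nd4l and -0.019 to 0.124 for mt-Cytb. The cause was not tested. The edgeR quasi-likelihood test planned on recovered reads was not run, because the deposited unit is RPKM.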
